A study of Mus musculus with 12 samples.

Results

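The urea cycle and glutamine zonation genes were 10 entries of the Ribo-seq table chosen by symbol, out of 25029 entries with a name of their own. The 9 members reported are Cps1, Otc, Ass1, Asl, Nags, Glul, Gls2, Got1 and Oat. All 9 had reads in every library and passed the filter on low reads that left 5776 genes. The urea cycle turns ammonia into urea. Cps1 and Otc start it in the mitochondria of hepatocytes, Ass1 and Asl carry it on in the cytosol, and Nags makes the activator that Cps1 needs. Urea is made mostly by hepatocytes near the portal vein, where Gls2 releases ammonia from glutamine, whereas a thin layer around the central vein carries Glul, the glutamine synthetase that catches the remaining ammonia, together with the ornithine aminotransferase Oat. Got1, the cytosolic aspartate aminotransferase, interconverts aspartate, which supplies nitrogen to the cycle, and oxaloacetate.

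The study asked how lycopene, a carotenoid of tomatoes, changes translation in the fatty liver. Ribo-seq, which sequences the RNA fragments covered by ribosomes (footprints), was performed on livers of male C57BL/6 mice aged 16 weeks. The HFD group (n = 3 libraries) had eaten a high-fat diet for 8 weeks, and the LYC group (n = 3 libraries) the same diet with lycopene for 8 weeks. The lycopene was taken from the sample titles and the study's methods, since the treatment label names the high-fat diet alone for both groups. No libraries from mice on normal feed were analysed here, and both groups ate the high-fat diet. The labels say that equal amounts of material were pooled before library construction. The study's methods also state that samples were pooled after digestion, before the ribosomes were pelleted. That each library is a separate replicate therefore rests on the titles and on the study's statement of 3 biological replicates a group. If the libraries are not separate replicates, the p-values measure technical spread only. The livers are whole tissue, in which fewer cells of a type and less RNA per cell cannot be told apart.

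The totals of the Ribo-seq libraries were inferred from the deposited values, as described below. By these totals the HFD libraries held 834410 to 4405541 reads and the LYC libraries 311050 to 412116, a ratio of 6.91 between the group medians. Small non-coding RNA took 2.47 to 3.94% of the reads recovered for the genes in HFD and 8.42 to 13.0% in LYC. The summed RPKM (reads scaled to transcript length and to the total reads of the library) of 5 measured hepatocyte markers was 37886 to 41410 in HFD and 24341 to 33638 in LYC, with none at 0 in every library of a group and none called. The 5 cholangiocyte markers summed to 11.0 to 23.1 RPKM in HFD and 1.67 to 8.48 in LYC, and 4 of them (Krt19, Krt7, Epcam and Cftr) were at 0 in all LYC libraries. Of these 5, 0 passed the filter on low reads, so none was tested. In LYC 1 read on 1 kb gave 2.43 to 3.21 RPKM, against 0.227 to 1.20 in HFD, so a value of 0 in LYC does not show absence. The 6 endothelial markers summed to 58.2 to 82.6 RPKM in HFD and 22.6 to 119 in LYC, and 1 of the 5 tested, Pecam1, was called lower (log2 fold change −1.12, SE 0.31). The sums of the Kupffer cell, stellate and red cell markers overlapped between the groups, with none called. The part of depth, small RNA and cell make-up in the results was not tested.

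The libraries labelled mRNA could not serve as a separate measurement. For each of the 6, between 69.2 and 85.7% of the 1780 to 9408 genes with at least 20 reads in both tables had counts within 5% of those of 1 Ribo-seq library, against 0.0464 to 11.9% for any other pairing. The LYC numbers matched their own, while the libraries labelled mRNA HFD1, HFD2 and HFD3 matched the Ribo-seq libraries HFD2, HFD3 and HFD1. No translational efficiency was therefore computed, and the 4 members called higher on those counts by edgeR's quasi-likelihood test (Got1, Asl, Otc and Cps1, where 9.31% of all genes were called higher) rest on nearly the same reads. There Cps1 was not called in 7 of 9 alternatives, in which its log2 fold change was 0.95 to 1.18, above 1 in 5 that missed the limit on p alone, while those of Got1, Asl and Otc held in all 9.

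Ribosomes reach these proteins through the start codon, so the bases around it are shown for 5 members: the 3 that were called, Cps1, and Nags, the member with the lowest estimate. Each line runs 5′ to 3′ from RefSeq transcripts on GRCm38.p6, with the base at position −3, the start codon and the base after it in capitals.
Got1: cattctgtcGcgATGGcgcctcca
Asl: gaaccgcccAacATGGcatcagag
Otc: agcaaaaagAagATGCtgtctaat
Cps1: aacatcttcAaaATGAcgaggatt
Nags: ttggttgtcGtcATGGcgacggcg
A purine at −3 was present in 9 of 9 members, against 84.8% of 19206 genes, and a G after the start codon in 4 of 9, against 49.8%. Members with and without that G were both among the genes called, and the part of the start context in the changes was not tested.

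Of the 9 members, 3 were called higher in LYC, Got1, Asl and Otc, and 0 were called lower, where a call means a log2 fold change beyond 1 in size with p below 0.01 before adjustment (limma with mean-variance trend, two-sided). Among all genes tested, 5.38% were called higher and 8.28% lower, 13.7% together, and 12.1% passed the same fold with an adjusted p below 0.05. At p below 0.05 alone, 5 members were higher and 0 lower, where 11.4% of all genes were higher and 19.3% lower. Both edgeR and DESeq2 called 4 members higher and 0 lower. Of all genes, edgeR called 8.59% higher and 6.80% lower, and DESeq2 8.81% and 6.73%. The median log2 fold change of the members was 0.59 (0.44 to 0.77 when 1 library was left out) and that of all genes tested −0.23, and 6 members were positive and 3 negative. After scaling by TMM factors (edgeR's trimmed mean of M-values), the 3 LYC libraries lay above the 3 HFD libraries in 5 members (Cps1, Otc, Asl, Got1 and Oat), where 14.9% of all genes did so. In 0 members did they lie below, against 24.2% of all genes, and 39.0% of all genes had no overlap in either direction. TMM factors can be taken from all listed genes, as here, or from the genes that passed the filter. This choice, which had not been specified beforehand and was settled with both results known, decided the call of Cps1. With the second set 4 members were called higher, Cps1 included, where 6.99% of all genes were called higher and 6.32% lower.

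**Figure D1:**
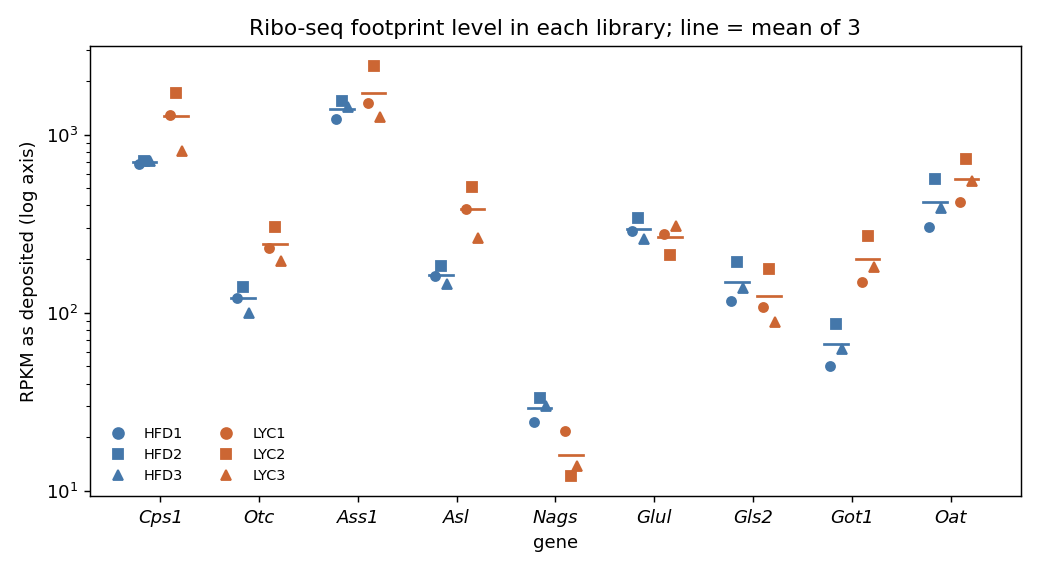
RPKM of the 9 genes as deposited (log axis) in the 3 HFD (blue) and 3 LYC (orange) libraries, with symbols for the library numbers and a line at each group mean. Cps1, Otc, Asl and Got1 lie higher in every LYC library than in any HFD library, and Nags lower, while Ass1, Glul, Gls2 and Oat overlap.

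Cps1, carbamoyl phosphate synthetase and the entry to the cycle, had 684, 708 and 715 RPKM in HFD and 1281, 1705 and 808 in LYC. The spread was small in HFD, and all 3 LYC libraries lay above it, LYC3 by little. The means were 703 ± 16.2 and 1264 ± 449 (SD, n = 3), from 31056 and 7611 reads. The log2 fold change was 0.92 (SE 0.29, unadjusted p = 0.0119, adjusted p = 0.0738 by limma with Benjamini-Hochberg adjustment), under the limits of a call. With TMM factors from the genes that passed the filter it was 1.08 (adjusted p = 0.0545 by limma), past both limits, and without LYC replicate 3 it was 1.23. Otc, ornithine transcarbamylase, which joins carbamoyl phosphate to ornithine, had 121, 140 and 100.3 RPKM in HFD and 231, 304 and 196 in LYC. Its groups did not overlap, and the log2 fold change was 1.14 (SE 0.23, adjusted p = 0.0175 by limma). The call of Otc was lost where no scaling factor was used, with a log2 fold change of 1.00. With 1 library left out, the adjusted p of Otc by limma was at or above 0.05 in 4 of 6 fits, as was that of Asl, the highest being 0.0973 and 0.0773.

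Ass1, argininosuccinate synthetase, was the member with the most footprints per length in the Ribo-seq table. It had 1220, 1543 and 1433 RPKM in HFD and 1501, 2415 and 1250 in LYC, and the groups overlapped. Its log2 fold change of 0.39 (SE 0.27, adjusted p = 0.354 by limma) was not past the limits. With 1 library left out it was 0.23 to 0.61. Ass1 was also the member on which the deposited tables differed: the library labelled mRNA held 39.9 to 45.8% fewer reads for it than the Ribo-seq library it matched, while the other 8 members differed by at most 4.04%. Its level therefore differs between the tables, and the cause was not tested. Asl, the argininosuccinate lyase of the next step, had 160, 182 and 145 RPKM in HFD and 381, 511 and 262 in LYC. Every LYC library lay above every HFD library, and the log2 fold change was 1.33 (SE 0.26, adjusted p = 0.0156 by limma).

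Nags, N-acetylglutamate synthase, was the member with the fewest reads. Its RPKM was 24.3, 33.4 and 30.0 in HFD and 21.6, 12.2 and 13.8 in LYC, resting on 140, 311 and 53 reads in the first group and on 18, 8 and 12 in the second. The deposited RPKM of the groups did not overlap, but after scaling LYC1, at 24.9, fell between HFD1, at 24.6, and HFD2, at 28.4. The log2 fold change was −0.74 (SE 0.32, adjusted p = 0.164 by limma). Without LYC replicate 1 it was −1.04 and past the limits, so 1 library decided this call. The estimate was weaker without LYC replicate 2 (−0.48), with edgeR (−0.54) and with DESeq2 (−0.54).

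Among the genes around the cycle, Got1 had the largest change of the 9. Its RPKM was 49.9, 86.8 and 62.3 in HFD and 148, 270.4 and 182 in LYC. Its lowest LYC library was above the highest HFD library, the ratio of the means was 3.01, and the log2 fold change was 1.71 (SE 0.26, adjusted p = 0.00563 by limma). Oat had 302, 565 and 387 RPKM in HFD and 421, 725 and 551 in LYC. Deposited values overlapped and the scaled values did not, and the log2 fold change was 0.59 (SE 0.26, adjusted p = 0.163 by limma).

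Glul and Gls2, the pair that makes and splits glutamine, had estimates near 0. Glul had 289, 342 and 258 RPKM in HFD and 278, 212 and 305 in LYC, and LYC2, the highest LYC library for 7 of the 9 genes, was its lowest, as it was for Nags. Its log2 fold change was −0.03 (SE 0.26, adjusted p = 0.956 by limma). Gls2 had 116, 194 and 137 RPKM in HFD and 108, 176 and 88.7 in LYC, with a log2 fold change of −0.15 (SE 0.27, adjusted p = 0.731 by limma). Some of the other scalings, which also move the median of all genes, turned the estimates positive, Gls2 in fewer of them than Glul, so no direction is given for either gene.

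**Figure D2:**
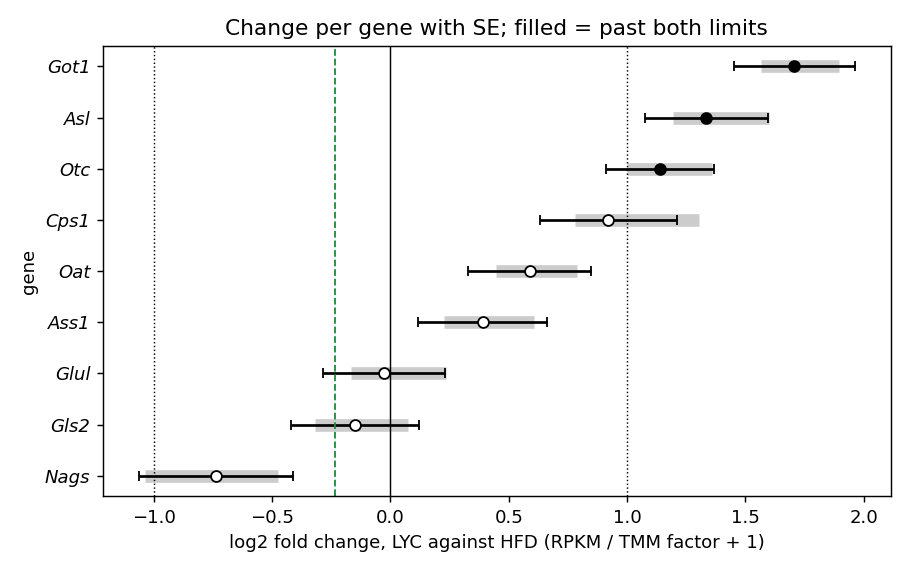
Log2 fold change of LYC against HFD for each gene with its SE (3 libraries a group). Filled points passed both limits, grey bands span the values over the alternatives, the dashed green line is the median of all genes tested at −0.23, and dotted lines mark 1 and −1. Got1, Asl and Otc are filled, and the band of Cps1 crosses 1.

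Ratios between members within a library do not depend on the scaling between libraries. The log2 ratio of Asl to Ass1 was −2.93, −3.08 and −3.31 in HFD and −1.98, −2.24 and −2.25 in LYC. Every LYC library lay above every HFD library, so footprints on Asl were higher relative to Ass1, with the reservation on Ass1 reads given above. The log2 ratio of Nags to Cps1 was −4.82, −4.41 and −4.57 in HFD and −5.89, −7.13 and −5.87 in LYC, lower in all 3 LYC libraries. The ratio of Got1 to Glul was −2.53, −1.98 and −2.05 in HFD and −0.91, 0.35 and −0.75 in LYC, higher in all 3. The ratios of Otc to Cps1, Glul to Cps1, Glul to Gls2 and Oat to Glul overlapped between the groups. With 3 libraries against 3, the smallest p of an exact two-sided permutation test is 0.1, so the ratios are given as a description, with no test.

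**Figure D3:**
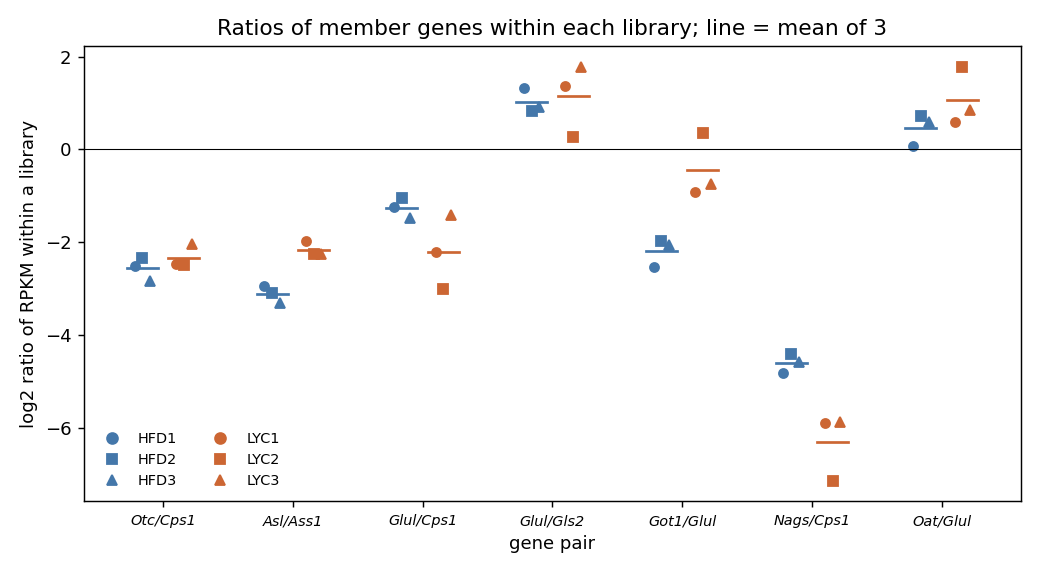
Log2 ratio of RPKM between 2 genes in each of the 3 HFD (blue) and 3 LYC (orange) libraries, with a line at each group mean. Asl/Ass1 and Got1/Glul lie higher and Nags/Cps1 lower in all LYC libraries, and the other 4 pairs overlap.

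To compare levels between genes, reads were divided by the codons of the coding sequence and scaled to 1000000 of the footprints on genes other than small RNA. On this scale the HFD means fell in the order Ass1 (6.64 ± 0.660, SD, n = 3), Cps1 (3.13 ± 0.220), Glul (2.66 ± 0.203), Oat (2.44 ± 0.639), Gls2 (1.02 ± 0.214), Otc (0.941 ± 0.0973), Asl (0.763 ± 0.0393), Got1 (0.393 ± 0.0889) and Nags (0.140 ± 0.0185). Glul overlapped with its neighbour Oat and Gls2 with Otc between libraries, and the other neighbours did not overlap. The order in the LYC libraries was Ass1, Cps1, Oat, Glul, Otc, Asl, Got1, Gls2 and Nags, and only Nags was separated from its neighbour over the libraries. Within single libraries, 6 of the 8 neighbouring pairs kept their order in all 3 HFD libraries, all but Glul with Oat and Gls2 with Otc. In LYC 5 of 8 did so, all but Oat with Glul, Glul with Otc and Otc with Asl. The first place of Ass1 rests on the Ribo-seq reads: by the counts labelled mRNA, which hold fewer Ass1 reads, Cps1 lay above Ass1 per codon in all 3 LYC libraries and Ass1 above Cps1 in all 3 HFD libraries. Together the 9 genes took 1.01, 1.11 and 1.13% of these footprints in HFD and 1.70, 2.22 and 1.30% in LYC (means 1.08% ± 0.0640 and 1.74% ± 0.460, SD, n = 3). Cps1 alone took 0.470% ± 0.0329 in HFD and 0.886% ± 0.291 in LYC.

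**Figure D4:**
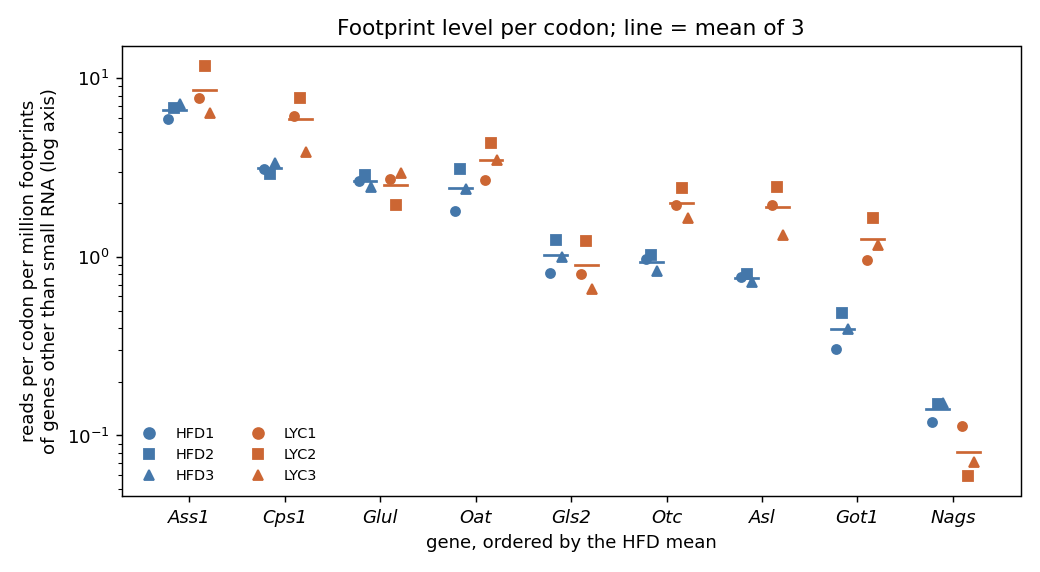
Reads per codon and 1000000 footprints of genes other than small RNA (log axis), with genes ordered by the HFD mean, in the 3 HFD (blue) and 3 LYC (orange) libraries; lines are group means. By these Ribo-seq reads Ass1 has the highest and Nags the lowest mean in both groups.

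Of the related lists, 8 carriers and ammonia-producing enzymes passed the filter and 0 were called by limma, edgeR or DESeq2, with 0 at p below 0.05. Among all genes limma called 13.7%, and at p below 0.05 11.4% were higher and 19.3% lower, so nothing is read from a count of 0 in lists this small. The median log2 fold change of the carriers was −0.08, and −0.14 to −0.02 when 1 library was left out. Glud1, the glutamate dehydrogenase, had −0.06, Got2, the mitochondrial partner of Got1, −0.26, the ornithine carrier Slc25a15 −0.21, and the alanine aminotransferase Gpt −0.04. Of 5 enzymes of ornithine and proline, 0 were called by limma, edgeR or DESeq2, with a median of 0.28, and 1 was higher and 1 lower at p below 0.05. That median was 0.54 without LYC replicate 1, 0.02 without LYC replicate 3 and −0.11, over 4 genes, with at least 10 reads in every library. Prodh had 0.68, Prodh2 −0.74, Aldh4a1 −0.49 and Odc1 0.28. With TMM factors from the genes that passed the filter the median of the carriers was 0.07 and that of all genes −0.10. With at least 10 reads in every library it was −0.08 and that of all genes 0.07, so its place against all genes turned.

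The median of 33 amino acid catabolism enzymes considered was −0.01, and −0.02 to 0.13 when 1 library was left out. It was 0.19 with edgeR, 0.20 with DESeq2, 0.18 with the length trend removed and −0.15 with no scaling factor. In those 4 settings the median of all genes was −0.02, −0.02, 0.01 and −0.36. Of the 33 enzymes, 4 were called higher and 1 lower, where 5.38% of all genes were higher and 8.28% lower. The higher genes were Tdo2, the tryptophan dioxygenase (log2 fold change 1.66, SE 0.23), Sds, the serine dehydratase (1.56, SE 0.34), Tat, the tyrosine aminotransferase (1.40, SE 0.31), and Mccc1, a carboxylase subunit of leucine breakdown (1.38, SE 0.33). Gldc, the glycine decarboxylase, was lower (−1.53, SE 0.24). Hpd and Hgd, both of tyrosine breakdown, had 0.84 and 0.45 and were not called. With TMM factors from the genes that passed the filter, 6 were called higher and 1 lower (all genes 6.99% and 6.32%), while edgeR and DESeq2 each called 8 higher (all genes 8.59% and 8.81%) and 1 lower. With a limit of p below 0.001 in limma, 1 was higher and 1 lower, against 2.67% and 2.41% of all genes. Leaving out 1 library gave 3 to 5 higher, with Mccc1 lost without HFD replicate 3, and 1 to 3 lower, with 3 without LYC replicate 2. Over all genes these fits called 211 to 460 higher and 205 to 859 lower, of 4711 to 7285 tested. Of 9 transporters tested, Slc6a13 (−1.95, SE 0.30) and Slc16a10 (−1.30, SE 0.29) were lower and 0 were higher, where 8.28% of all genes were lower. Slc16a10 was not called without HFD replicate 1 or with the length trend removed, 3 were lower without LYC replicate 2, and 1 was lower with p below 0.001. The abundant glutamine transporter Slc38a3 had −0.27, Slc38a4 −0.04, Slc7a2 −0.71 and Aqp9 −0.37.

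Of 10 other periportal markers tested, 3 were called higher, Pck1 of gluconeogenesis (1.64, SE 0.34), Sds and the urate oxidase Uox (1.13, SE 0.31), and 2 lower, Cdh1 (−1.89, SE 0.46) and Cyp2f2 (−1.03, SE 0.24), where 5.38% of all genes were higher and 8.28% lower. Hsd17b13 had −0.41. With the other TMM factors 1 was called lower, where 6.32% of all genes were, since Cyp2f2 no longer passed the limits. Without HFD replicate 1 or HFD replicate 3, 2 were called higher and 0 lower, with Uox, Cdh1 and Cyp2f2 lost. Over all genes the first of these fits called 262 higher and 228 lower of 4903, and the other 211 and 205 of 4870. Uox was also lost without LYC replicate 1 or LYC replicate 2, and Cyp2f2 without LYC replicate 1. Without LYC replicate 2, 3 were lower, where 605 of all 7214 genes were. With p below 0.001, 1 was higher and 0 lower, against 2.67% and 2.41% of all genes. Of 11 other perivenous markers, 0 were called higher and 1 lower, Cyp1a2 (−1.45, SE 0.38), a share near the 8.28% of all genes, while Cyp2e1 had 0.05, Rgn 0.58 and Aldh1a1 0.35. The call of Cyp1a2 was lost in 4 of the 6 fits that left out 1 library, those without HFD replicate 1, HFD replicate 3, LYC replicate 2 or LYC replicate 3, and also with p below 0.001. The median was −0.38 in the periportal list, from −0.54 without HFD replicate 1 to −0.15 without HFD replicate 2. In the perivenous list it was 0.06, from −0.10 without LYC replicate 1 to 0.44 without LYC replicate 2, so its sign rests on single libraries. Of 14 regulators tested, the glucagon receptor Gcgr (−1.31, SE 0.32) and Foxa2 (−1.67, SE 0.38) were called lower and 0 higher, where 8.28% of all genes were lower. Their median was −0.56, but −0.29 with edgeR, −0.30 with DESeq2 and −0.24 with the length trend removed. In those 3 settings the median of all genes was −0.02, −0.02 and 0.01. With p below 0.001, 0 were called. Foxa2 rested on 9 reads in LYC and was not called without HFD replicate 1, and Gcgr was not called without HFD replicate 2 or HFD replicate 3. Without LYC replicate 1, 3 of the 17 regulators that could then be tested were lower and 1 higher, where 593 of all 7285 genes were lower and 314 higher. Hnf4a had −0.51, Cebpa −0.77, Cebpb 0.70 and Ctnnb1 0.19.

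**Figure D5:**
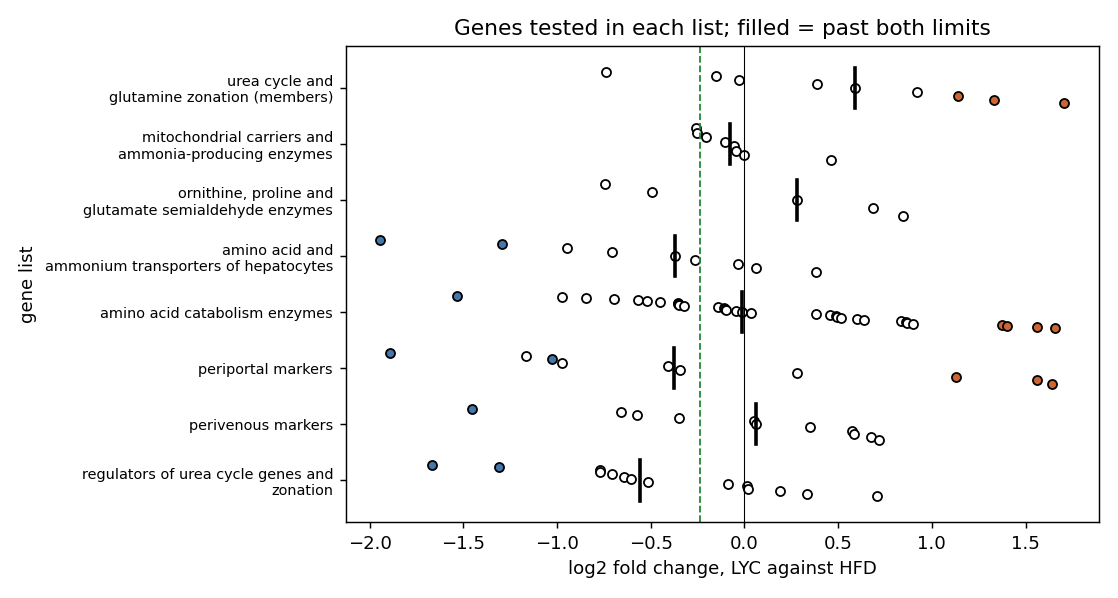
Log2 fold change of LYC against HFD for each gene tested, by list; filled points were called (orange higher, blue lower), thick lines are list medians, and the dashed green line is the median of all genes tested at −0.23. The median of the 9 members, 0.59, lies to the right of the other lists' medians.

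Over the 6 libraries, the genes with the scaled log2 level most like that of Cps1 were Hint1 (Pearson r = 0.995), Mthfd1 (0.989) and Serbp1 (0.988). Among the members, Asl was closest (0.965), then Otc (0.920) and Ass1 (0.901). For Glul they were Rlf (0.998), Dazap1 (0.997) and Mcm3ap (0.996). These values describe 6 libraries that share depth differences between the groups, and 79 genes for Cps1 and 44 for Glul reached 0.95.

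RefSeq promoters (250 bases before to 50 after the start, GRCm38.p6) matched 6 of the 9 members. In 5 of them the start was that of the annotated gene, while for Otc it lay 75 bases inside the gene, so the Otc window holds more of the transcript. The promoters of Got1 (chr19:43524556-43524855, minus strand) and Otc (chrX:10252055-10252354, plus strand), both of called genes, are shown, with matches to CCAAT on either strand in capitals.
Got1: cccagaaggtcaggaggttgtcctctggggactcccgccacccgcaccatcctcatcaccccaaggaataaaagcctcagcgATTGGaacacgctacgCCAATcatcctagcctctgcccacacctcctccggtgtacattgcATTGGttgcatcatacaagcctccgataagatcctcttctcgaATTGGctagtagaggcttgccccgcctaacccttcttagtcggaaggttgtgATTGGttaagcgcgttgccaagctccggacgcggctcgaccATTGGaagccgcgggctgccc
Otc: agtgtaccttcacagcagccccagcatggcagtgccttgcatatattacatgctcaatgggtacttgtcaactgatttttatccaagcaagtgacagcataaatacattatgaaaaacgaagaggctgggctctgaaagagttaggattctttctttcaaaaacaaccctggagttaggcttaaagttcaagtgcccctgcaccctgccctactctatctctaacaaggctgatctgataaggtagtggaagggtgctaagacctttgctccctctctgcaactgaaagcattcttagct
Motifs were searched on both strands of 32851 promoters. The TATA box letters TATAAA were in 13.6% of them, the letters CCAAT in 37.4%, the C/EBP-type letters TTGCNNAA in 10.8%, the cAMP-response site letters TGACG in 20.8% and the steroid-receptor site letters AGAACA in 19.0%. The Got1 promoter held 6 CCAAT matches, a number reached by 26 of 32851 promoters (0.0791%) and chosen for mention after it was seen. The Glul and Oat promoters held CCAAT as well, and neither gene was called. In the Otc window CCAAT was not found. TGACG was found in the Nags and Oat promoters, and TATAAA, TTGCNNAA and AGAACA in none of the 6. The part of these motifs in the changes was not tested.

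The genes lie on GRCm38.p6, as RefSeq annotates them, at chr1:67122426-67231267 (Cps1), chrX:10252230-10321024 (Otc), chr2:31470270-31520670 (Ass1), chr5:130011258-130024381 (Asl), chr11:102145513-102149528 (Nags), chr1:153899929-153909723 (Glul), chr10:128194635-128210004 (Gls2), chr19:43499752-43524605 (Got1) and chr7:132557475-132576398 (Oat). Coding sequence made up 40.0% of the Glul transcript and 81.0% of that of Cps1, the extremes among the 9, which moves RPKM ratios between genes: Cps1 over Glul in HFD was 2.40 by RPKM but 1.18 per codon.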

How the data were processed

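Per the labels and the study's methods, the authors trimmed reads with cutadapt, filtered them with Bowtie2, aligned them to mm10 with STAR and counted them with FANSE2. Versions and annotation release are not given in the sources used here. The deposited Ribo-seq values were RPKM, and the deposited table labelled mRNA held counts and RPKM. Library totals were inferred from the RPKM that 1 read gives, and reads were recovered from RPKM, these totals and lengths. The recovered reads came to 80.8 to 93.0% of the inferred totals. Of 15749 genes above 0, 11017 were whole (within 0.005 plus 1e-06 of the reads) with the length implied by the table labelled mRNA. For 4731 others a length was fitted that makes the reads whole, which is no independent check. Among the genes kept these were 1916 of 5776, Gls2 among them. Their reads enter the filter on low reads and the TMM factors of the limma fit. They also enter the footprint shares, the per-codon levels and the edgeR and DESeq2 results. Of 25033 entries, 4 shared a name and were left out.

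RPKM values were divided by TMM factors (edgeR 4.0.16) computed over all listed genes, 1 was added before the log2, and limma 3.58.1 (trend, R 4.3.3) compared LYC with HFD over the genes kept by filterByExpr, with Benjamini-Hochberg adjustment over all of them. The design named TMM factors without saying which genes they are computed over. Factors over all listed genes were fitted first. Factors from the genes kept were tried after those results had been seen, called 1 more member (Cps1) and for a time replaced them as the reported scaling. The first scaling was then restored because the replacement had been made with its effect on Cps1 known, and the second is given as an added alternative. The reported scaling, which decides whether 3 or 4 members are called, was thus settled with both outcomes known. The counts labelled mRNA were tested by edgeR's quasi-likelihood test. Per-codon levels used RefSeq coding sequences, and the share of all reads used the inferred library totals. Some genes, 1 member among them, are not reported here, and counts over the members and lists leave them out. Named were all other members and, per list, the genes called and up to 4 with the highest mean RPKM, plus the 3 genes most like Cps1 and Glul.

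In simulated counts for LYC against HFD, the limma fit called 89 of 90 genes changed 4-fold, 29 of 92 changed 2-fold and 55 of 5456 unchanged. The simulation gave all genes the same dispersion and held no group-wide shift, length trend or difference in small RNA. These rates therefore need not hold for the real libraries. Members and lists were chosen with earlier results of these data known. Alternatives were other scalings, pseudocounts, filters, limits, edgeR, DESeq2 1.42.0, a length correction, a replicate block and leaving out each library.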

Additional observations from a re-analysis of the deposited data

How the results depend on the processing

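Got1 and Asl were called higher in all 20 alternatives, and Otc in 19, all but no scaling factor (1.00). Their adjusted p ranged up to 0.0330 for Got1, 0.0773 for Asl and 0.0973 for Otc. Cps1 was called in 6 of 20: median-ratio size factors (1.05), edgeR (1.13), DESeq2 (1.14), the length trend removed (1.31), without LYC replicate 3 (1.23) and TMM factors from the genes kept (1.08), the last chosen after seeing the data. Its adjusted p ranged from 0.00202 to 0.208. Oat and Ass1 were positive and not called in any alternative. Nags was negative in the 19 that could test it, and was called only without LYC replicate 1. It could not be tested with at least 10 reads in every library. The number of members called lower was 0 to 1 when 1 library was left out.

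The estimate of Glul turned positive with median-ratio size factors (0.10), TMM factors without small RNA (0.0078), edgeR (0.16), DESeq2 (0.16), the length trend removed (0.23) and TMM factors from the genes kept (0.13), and ranged from −0.14 to 0.24 when 1 library was left out. That of Gls2 turned positive with edgeR (0.028), DESeq2 (0.033), the length trend removed (0.075) and TMM factors from the genes kept (0.0036), and ranged from −0.32 to 0.074 when 1 library was left out. In the counts labelled mRNA without a filter, Glul turned to −0.018 and Gls2 to −0.16, and with 1 library left out Gls2 reached −0.19. The cause was not tested.

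Over all genes tested the calls were 311 higher and 478 lower. Factors from the genes kept gave 404 and 365, no scaling factor 235 and 651, and the overall median moved from −0.23 to −0.10 and −0.36. It was −0.02 with edgeR and with DESeq2, and turned positive with the length trend removed (0.01) and with at least 10 reads in every library (0.07). Those called higher were 496 with edgeR, 509 with DESeq2 and 154 with p below 0.001. Those called lower were 298 with pseudocount 5, 877 without a filter, 124 with at least 10 reads in every library, and 139 with p below 0.001. With 1 library left out, 211 to 460 were called higher and 205 to 859 lower. By all reads of the library the members' share was 0.905% in HFD and 1.38% in LYC. By deposited length Cps1 over Glul was 2.40 in HFD and 5.10 in LYC, against 1.18 and 2.51 per codon.

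Deviations of same-numbered libraries from their group means had r = 0.108, 0.0263 and 0.00702, against −0.0998 to 0.0646 for the other pairings. With 3 libraries a group these values cannot decide whether the numbers pair the libraries, and the reported fit used no pairing. With a replicate block the calls were 305 higher and 447 lower, while those of the 9 members stayed as they were. Depth limits Nags most, with 8 to 18 reads per LYC library. Split by transcript length into 4 groups from short to long, the genes tested had median log2 fold changes of 0.08, −0.24, −0.32 and −0.40.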
